A study of Mus musculus with 9 samples.

Results

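The genes described here encode the constitutive proteasome, the protease that degrades ubiquitin-tagged proteins in every cell. They were found by name in a table of RNA sequencing counts from mouse hippocampus: 51 gene symbols began with Psma to Psmg and a digit, out of 38911 symbols in the table. Psmb8, Psmb9 and Psmb10, the immunoproteasome subunits, were left out. Of the remaining 48 symbols, 35 had a mean of at least 5 counts over the libraries labelled CTL and SAE and are the members described. Just inside that minimum were Psmb2, Psmb11 and Psme2, each with a mean of 5.17 counts. Just outside it were Psmd2 and Psmg4, each with 2.33.

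The study started with 9 healthy adult specific-pathogen-free BALB/c mice, 3 per group, and took their hippocampus after surgery. Mice labelled CTL had a sham operation. Mice labelled SAE (sepsis-associated encephalopathy) had only CLP, cecal ligation and puncture, in which the gut is opened so that its bacteria reach the abdomen. Mice labelled CCLF had CLP and were given flavonoids of Cuscuta chinensis at 200 mg/kg. When after surgery the tissue was taken is unknown here.

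The proteasome consists of a barrel, the 20S core, and a cap, the 19S particle. The core stacks rings of alpha subunits, which gate the entry, on rings of beta subunits, of which Psmb5, Psmb6 and Psmb7 carry the active sites. The base of the cap holds a ring of ATPases (Psmc genes) that unfold the substrate, and its lid removes the ubiquitin chain through Psmd14. Other activators, encoded by Psme genes, can dock on the core in place of the cap. In neurons the proteasome is known for turning over synaptic proteins.

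Library totals ran from 4626519 to 4895474 counts. Genes of inflammation were high in the libraries labelled CTL, and this goes against what the labels would give, since such genes are known to rise in sepsis. The summed level of 9 such genes (Lcn2, Cxcl10, Ccl2, Icam1, S100a8, Steap4, Cp, Gfap and Vim) was 4050 to 5760 CPM (counts scaled to a common library size) with the CTL label and 175 to 221 with the SAE label, and all 9 were called lower in SAE. Groups are therefore named by their labels throughout, and every direction below rests on them. For scale, 23.7% of all 8213 genes tested were called higher in SAE and 23.9% lower. Of 6 tested microglia markers 6 were called higher in SAE (summed level 774 to 838 against 442 to 573 CPM, with P2ry12 at 0). Among them, Siglech had 0, 0 and 1 counts in CTL and 17, 20 and 15 in SAE, so it was tested through the SAE group alone. Of 6 oligodendrocyte markers 5 were called higher (1340 to 1540 against 897 to 981 CPM, none at 0). Of 8 hippocampal neuron markers 3 were called higher and 1 lower (8420 to 8710 against 7700 to 7840 CPM). Of 7 astrocyte markers 2 were called higher and 4 lower (3750 to 3800 against 3490 to 3780 CPM). Of 4 endothelial markers 3 were called higher and 1 lower (435 to 461 against 301 to 342 CPM, with Pecam1 at 0). Of 6 choroid plexus markers 1 was called higher and 0 lower in the edgeR test (769 to 1540 against 566 to 891 CPM), and of 4 tested blood markers 2 were called lower (458 to 566 against 584 to 604 CPM, with Alas2 at 0). The part of these shifts in the proteasome values was not tested. In bulk tissue, fewer cells of a type and less RNA per cell cannot be told apart.

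The libraries labelled CCLF stood apart in another way. For each of 1639 called genes (log2 fold over 0.2 in size, over 40 CPM in a group), each library was placed on a line from the SAE mean, at 0, to the CTL mean, at 1. Positions in the CCLF libraries had medians of 0.5, 0.49 and 0.48, with quartiles of 0.26 and 0.76, 0.23 and 0.75, and 0.25 and 0.75. In the 3 libraries 94.3%, 93.0% and 94.1% of these genes lay between 0 and 1. Across these genes the positions in one CCLF library had correlations of 0.05, 0.01 and 0.09 with those in another. This is a description across genes, which are not independent and share their CTL and SAE means. Whether the CCLF columns are separate measurements of 3 mice cannot be settled from the table, and every CCLF call and adjusted p-value below holds only if they are. The comparison of SAE with CTL was fitted without the CCLF libraries, because they are not part of it.

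The deposited table lists RefSeq transcripts, and the number of transcripts of a gene went with its counts. Of the 48 symbols, 24 had 1 transcript in the table and 24 had several. Of those with 1 transcript, 23 had a mean of at least 50 counts, the exception being Psmb11 with 5.17. Of those with several, 4 reached 50 counts (Psmb7, Psmd11, Psma6 and Psma7) and 13 stayed under 5. Over all genes in the table the share with a mean of at least 50 counts was 15.9% with 1 transcript and 7.25% with several. Psma8, Psmc3ip, Psmd4, Psmd5, Psmd10 and Psmf1 had 0 counts in all 9 libraries, where a count of 0 allows up to 3 counts, or 0.648 CPM in the smallest library. Psmd4, the ubiquitin receptor of the base, is known as part of every assembled cap, so its 0 counts here are no measure of its expression. The other symbols under the minimum were Psma3, Psmc2, Psmd2, Psme3ip1, Psmg2, Psmg3 and Psmg4, with means of 0.33 to 2.33 counts. Psmc3ip and Psme3ip1 match the name pattern only: they encode partners of subunits, not subunits. For these 13 genes the table gives no usable value.

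**Figure D1:**
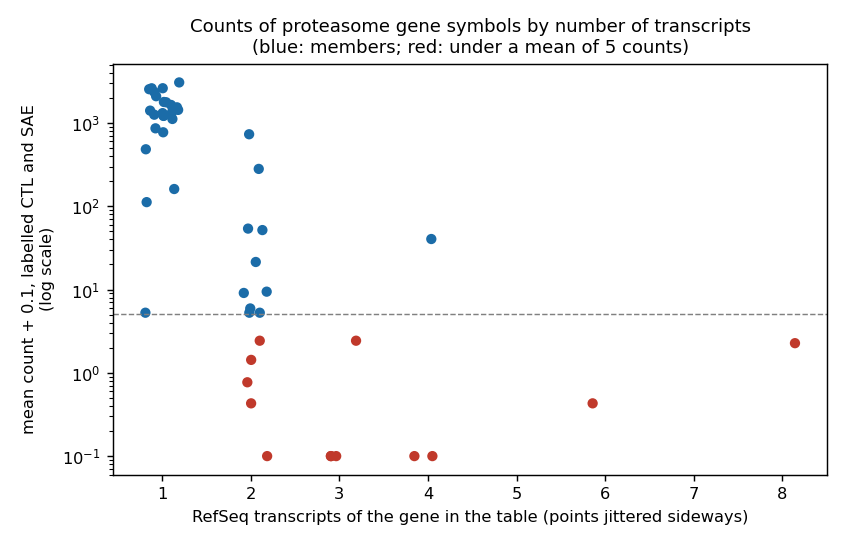
Mean count over the libraries labelled CTL and SAE (log scale, 0.1 added) against the number of RefSeq transcripts of the gene in the table, for 48 symbols. Of the 24 genes with 1 transcript 23 lie above 50 counts, and the 13 genes under the minimum of 5 counts all have several transcripts.

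Promoter sequences from RefSeq (build GRCm38.p6) were matched for 29 of the 35 members. Psmb1, Psmb2, Psmb7, Psmc3, Psmd3 and Psmd7 had none in the table. Windows of 300 bases, 250 before the start site and 50 after it, were searched on both strands for CCAAT (the NF-Y box), TGACNNNGC (a core like the antioxidant response element) and GAAANNGAAA (a core like the interferon-stimulated response element, added after the values were seen). The 250 bases before the start of a beta subunit, the beta subunit with the chymotrypsin-like site, an ATPase and an assembly chaperone are shown, all of them lower in SAE below, together with 30 bases after the start of the activator Psme1. Capitals mark the motif matches on either strand. Only stretches with a match are shown. Psma5, Psmb4, Psmc4, Psmd1, Psmd6, Psmd11, Psmd13 and Psme2b, also called lower, had a promoter in the search but no match.
Psmb3 (chr11:97703184-97703433, plus strand): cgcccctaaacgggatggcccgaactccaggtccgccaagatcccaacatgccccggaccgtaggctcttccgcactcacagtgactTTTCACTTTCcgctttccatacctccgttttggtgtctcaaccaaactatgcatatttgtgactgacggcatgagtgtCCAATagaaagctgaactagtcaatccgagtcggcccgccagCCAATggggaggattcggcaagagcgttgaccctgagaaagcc
Psmb5 (chr14:54617996-54618245, minus strand): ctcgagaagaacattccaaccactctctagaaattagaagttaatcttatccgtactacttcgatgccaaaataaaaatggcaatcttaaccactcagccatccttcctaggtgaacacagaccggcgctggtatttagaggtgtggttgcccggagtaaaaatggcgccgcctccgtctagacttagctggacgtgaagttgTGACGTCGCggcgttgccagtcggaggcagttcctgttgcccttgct
Psmc1 (chr12:100109952-100110201, plus strand): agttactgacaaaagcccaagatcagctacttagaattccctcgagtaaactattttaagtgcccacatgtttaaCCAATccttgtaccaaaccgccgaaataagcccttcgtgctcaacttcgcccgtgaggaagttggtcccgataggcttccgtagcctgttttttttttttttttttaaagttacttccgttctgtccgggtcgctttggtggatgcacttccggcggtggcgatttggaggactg
Psmd9 (chr5:123227940-123228189, plus strand): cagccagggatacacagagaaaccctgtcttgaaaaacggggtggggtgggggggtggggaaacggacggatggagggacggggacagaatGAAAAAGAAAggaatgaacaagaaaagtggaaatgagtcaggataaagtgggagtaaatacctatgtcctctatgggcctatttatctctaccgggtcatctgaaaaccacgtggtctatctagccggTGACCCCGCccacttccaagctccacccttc
Psme1 (chr14:55578494-55578523, plus strand): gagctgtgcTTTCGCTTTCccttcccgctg
In Psmb3 the capitals are GAAANNGAAA on the opposite strand and CCAAT at 2 places, in Psmb5 TGACNNNGC, in Psmc1 CCAAT, in Psmd9 GAAANNGAAA and then TGACNNNGC, and in Psme1 GAAANNGAAA on the opposite strand. CCAAT was in 29.0% of 31 member promoters (some genes have more than 1) and in 37.4% of all 32851 promoters. TGACNNNGC was in 19.4% and 12.4%, and GAAANNGAAA in 9.68% and 3.44%. The members with GAAANNGAAA were Psmb3, Psmd9 and Psme1. Those with TGACNNNGC were Psmb5, Psmb6, Psmc6, Psmd9, Psmd12 and Psme4. Of these, Psmb6 and Psmc6 were not tested below, and Psme4 was not called. Among the 17 members called lower that had a promoter, CCAAT was in 5, TGACNNNGC in 3 and GAAANNGAAA in 3. No motif overlapped another in the stretches shown. A match is a description of the sequence, not evidence of binding.

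Transcripts of the 20S core and the 19S cap were lower in the libraries labelled SAE than in those labelled CTL. The core and cap members called were lower by 10.2% to 29.4%. Of 29 members tested, 22 were called lower and 0 higher by edgeR's quasi-likelihood test, and 7 were not called. Over all 8213 genes tested, 23.9% were called lower and 23.7% higher. Among the 3643 genes with a mean of at least 100 counts, where small folds are easier to call, 31.5% were called lower and 28.2% higher. At an unadjusted p under 0.05, 23 members were lower and 0 higher, and DESeq2 and limma-voom also called 0 higher. The log2 fold was negative for 27 of 29 members, against 49.5% of all genes tested. The median log2 fold was -0.24 for the members and 0.0 for all genes. In 24 members every SAE library lay below every CTL library, against 27.1% of all genes tested, and in 0 members above, against 28.6%. All 29 tested members had at least 18 counts in each of these 6 libraries, so none was tested through one group alone. CPM below are on a scale shared by all 9 libraries, as mean ± SD (n = 3), and adjusted p-values are from edgeR's test with Benjamini-Hochberg adjustment over all genes tested. The ± after a log2 fold is its approximate standard error.

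**Figure D2:**
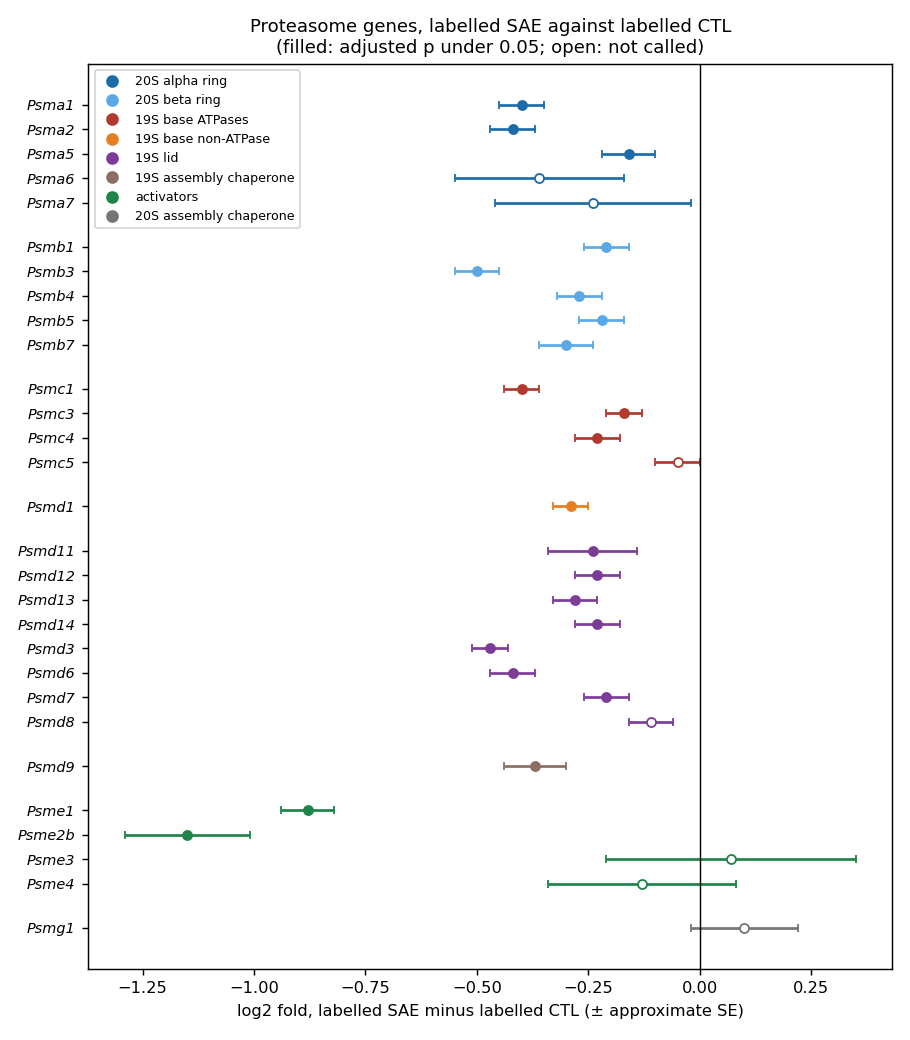
Log2 fold of each of the 29 tested members, labelled SAE minus labelled CTL, with its approximate standard error and grouped by place in the proteasome. The 22 filled points are called at an adjusted p under 0.05, and all 22 lie left of 0.

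The summed level of the 23 tested core and cap members was 7820, 8069 and 7875 CPM in the 3 CTL libraries. In the 3 SAE libraries it was 6527, 6551 and 6696. The groups did not overlap, and the SAE mean was 83.2% of the CTL mean. By the same sum, SAE stood at 79.2% of CTL for the alpha ring, 82.5% for the beta ring, 85.8% for the base and 82.2% for the lid. Whether the subcomplexes differ from each other was not tested.

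In the alpha ring, 3 of 5 tested members were called lower and 0 higher. The median log2 fold of -0.36 was that of Psma6, which was thinly measured and not called. Psma2, an alpha-ring subunit, had 343, 360 and 334 CPM in the CTL libraries and 264, 258 and 262 in the SAE libraries. All 3 SAE values lay below all 3 CTL values, and the log2 fold was -0.42 ± 0.05 (adjusted p = 2.14e-07). Psma1, another alpha subunit, had 307, 310 and 328 CPM with the CTL label and 232, 246 and 243 with the SAE label. It too fell without overlap (-0.4 ± 0.05, adjusted p = 6.29e-07). Psma5 changed least of the called alpha genes: 182, 193 and 200 CPM in CTL and 163, 174 and 182 in SAE (-0.16 ± 0.06, adjusted p = 0.0389). Its groups overlapped, and in 9 of 17 alternatives its call was lost (adjusted p 0.0212 to 0.235 over them). Among those were the fits without CTL replicate 2 (0.0766) or 3 (0.118) and without SAE replicate 1 (0.235) or 2 (0.106). Psma6 and Psma7 were measured thinly, at 12.8 ± 1.71 and 11.7 ± 3.35 CPM in CTL against 9.99 ± 0.135 and 10.1 ± 2.33 in SAE. Neither was called (log2 folds -0.36 ± 0.19 and -0.24 ± 0.22). Psma4, with 6 to 11 counts in these libraries, fell under the expression filter.

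In the beta ring all 5 tested members were called lower, with a median log2 fold of -0.27. Psmb3, a structural beta subunit, had 298, 310 and 293 CPM in CTL and 214, 202 and 225 in SAE. The groups were far apart. Its log2 fold of -0.5 ± 0.05 (adjusted p = 4.6e-08) was the largest of the core and cap members tested. The cap gene Adrm1, not a member by name, had a larger fold (-0.56 ± 0.05). Psmb4, the beta subunit with the highest counts, had 457, 495 and 495 CPM in CTL and 407, 389 and 415 in SAE (-0.27 ± 0.05, adjusted p = 4.38e-05). Psmb7, which carries the trypsin-like site, had 175, 168 and 168 CPM against 136, 136 and 147 (-0.3 ± 0.06, adjusted p = 0.000331). In both, every SAE library was below every CTL library. Psmb5, which carries the chymotrypsin-like site, fell from 253 ± 4.23 to 219 ± 0.84 CPM (-0.22 ± 0.05, adjusted p = 0.00109). Psmb1 fell from 404 ± 0.676 to 352 ± 3.7 CPM (-0.21 ± 0.05, adjusted p = 0.000452). Psmb6, the caspase-like subunit, had 5 to 15 counts, Psmb2 2 to 9, and Psmb11, known as the thymus form, 2 to 11, and these 3 were not tested.

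**Figure D3:**
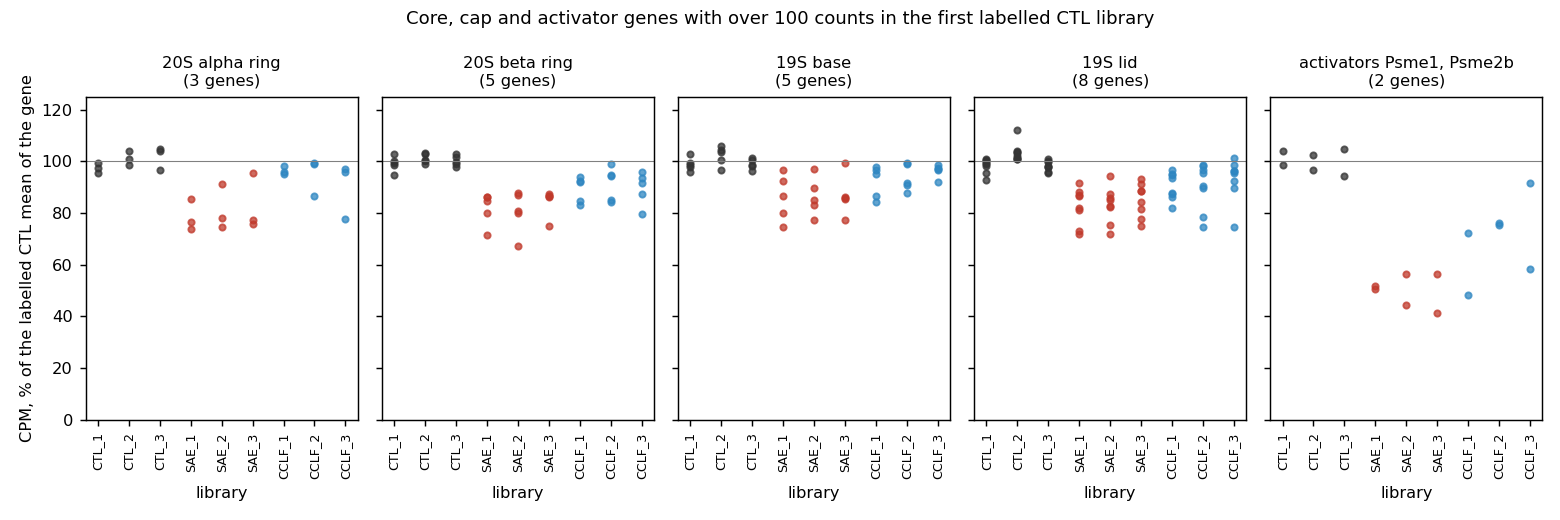
CPM of each member in each library as a percentage of its mean over the 3 CTL libraries, for the core, cap and activator genes with over 100 counts in the first CTL library (the chaperones are not drawn). Each point is 1 gene in 1 library. Points of the SAE libraries lie below 100% in all 5 panels, and those of the CCLF libraries mostly between the other groups.

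Among the ATPases of the base, 3 of 4 tested members were called lower and 0 higher (median -0.2). Psmc1 had 605, 636 and 588 CPM in CTL and 455, 472 and 471 in SAE, with no overlap (-0.4 ± 0.04, adjusted p = 5.82e-08). Psmc4 had 367, 388 and 369 CPM against 325, 319 and 321 (-0.23 ± 0.05, adjusted p = 0.000246). Psmc3 had 600, 563 and 586 CPM against 539, 523 and 502 (-0.17 ± 0.04, adjusted p = 0.00226). These ATPases sit in the same ring, and their folds differed in size. Psmc5 had 481, 532 and 492 CPM in CTL and 485, 487 and 499 in SAE, so that its groups overlapped (-0.05 ± 0.05, adjusted p = 0.433). The difference between Psmc5 and its ring partners was not tested. Psmc6 had 2, 2 and 4 counts in CTL and 11, 7 and 9 in SAE, and failed the expression filter. Where a filter of 1 CPM in 3 libraries let it be tested, it was called higher (1.70 ± 0.59, adjusted p = 0.0199), and with no filter as well (adjusted p = 0.0442). Psmc6 had 0.437, 0.417 and 0.833 CPM in CTL and 2.33, 1.5 and 1.86 in SAE. It thus passed the filter of 1 CPM through the SAE libraries alone, where it was high, so that call is no separate support for its direction. All of its counts fell on 1 of its 2 transcripts, a predicted one. Psmd1, the scaffold protein of the base, had 699, 712 and 720 CPM in CTL and 568, 589 and 605 in SAE (-0.29 ± 0.04, adjusted p = 3.74e-06). It had the highest mean count of all members, 3069 over these 6 libraries.

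In the lid, 7 of 8 tested members were called lower and 0 higher (median -0.23), and in all 8 the groups did not overlap. Psmd3, a lid scaffold subunit, had 646, 646 and 628 CPM in CTL and 459, 459 and 479 in SAE (-0.47 ± 0.04, adjusted p = 1.99e-09). Psmd6 had 326, 335 and 310 CPM against 237, 244 and 251 (-0.42 ± 0.05, adjusted p = 3.54e-07). Psmd13 had 289, 293 and 291 CPM against 238, 239 and 245 (-0.28 ± 0.05, adjusted p = 4.62e-05). In each of these genes the SAE libraries lay close together, and their spread was less than the gap between the groups. Psmd14, the lid enzyme that cuts off ubiquitin, fell from 320 ± 11 to 275 ± 16 CPM (-0.23 ± 0.05, adjusted p = 0.000859). Psmd7, its partner, fell from 401 ± 4.94 to 349 ± 5.11 (-0.21 ± 0.05, adjusted p = 0.000435), and Psmd12 from 278 ± 5.85 to 240 ± 8.18 (-0.23 ± 0.05, adjusted p = 0.000879). Psmd11 was called at the edge (-0.24 ± 0.1, adjusted p = 0.0492), and 12 of 16 alternatives lost that call (0.0362 to 0.258), among them those without CTL replicate 2 (0.258) and without SAE replicate 1 (0.0813), 2 (0.0992) or 3 (0.149). Psmd8 had 338 ± 13.4 CPM in CTL and 314 ± 3.94 in SAE and was not called (-0.11 ± 0.05, adjusted p = 0.0548), though it was in 2 of 17 alternatives (0.044 to 0.235), one of them without CTL replicate 1 (0.044).

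The assembly chaperones, which build the particle and then leave it, were nearly all out of reach. Psmd9, a chaperone of the base, had 116, 114 and 115 CPM in CTL and 90.1, 94.4 and 84.4 in SAE (-0.37 ± 0.07, adjusted p = 0.000178). Psmg1, a chaperone of the alpha ring, had 35.2, 30.9 and 32.3 CPM in CTL and 35.4, 31.5 and 38.9 in SAE. Its groups overlapped (0.1 ± 0.12, adjusted p = 0.545).

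Among the activators, 2 of 4 tested members were called lower and 0 higher, and the folds of those 2 were larger than any in the core and cap. Psme1, an interferon-inducible subunit of the ring activator, had 219, 216 and 199 CPM in CTL and 109, 119 and 119 in SAE. It fell by 45.6% (-0.88 ± 0.06, adjusted p = 3.98e-11). Psme2b, a gene close in sequence to its partner Psme2, had 32.1, 31.5 and 34.2 CPM against 16.5, 14.4 and 13.4 (-1.15 ± 0.14, adjusted p = 3.16e-07). Psme2 itself had 3 to 7 counts and was not tested. Reads of Psme2 and Psme2b can be hard to tell apart, so the value of Psme2b is uncertain. Psme3, which encodes a nuclear activator not raised by interferon, had 4.38 ± 0.621 CPM in CTL and 4.64 ± 0.468 in SAE (0.07 ± 0.28, adjusted p = 0.852), and its fold turned negative without CTL replicate 2 (-0.032) or SAE replicate 3 (-0.0073).

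Psme4, a large activator that binds the core alone, had 8.89 ± 0.127 CPM in CTL and 8.16 ± 0.393 in SAE over all its transcripts and was not called (-0.13 ± 0.21, adjusted p = 0.625). Its transcripts moved in opposite directions. One predicted transcript had 24, 29 and 29 counts in CTL and 10, 15 and 10 in SAE, with a log2 fold of -1.23 ± 0.31 in edgeR's test of the transcript table (adjusted p = 0.00191). Another had 12, 7 and 12 counts in CTL and 29, 18 and 28 in SAE (1.25 ± 0.34, adjusted p = 0.00376). Neither overlapped between the groups. Its curated transcript had 0 counts in all 9 libraries. How the authors divided reads among similar transcripts is not stated in the labels.

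Levels between genes were compared per kilobase of transcript, for the tested members with 1 RefSeq transcript and a matched GENCODE M21 length. Where several lengths matched, the longest was taken. In the CTL libraries alpha subunits ran from 119 CPM per kb for Psma2 to 262 for Psma1, and beta subunits from 230 for Psmb1 to 408 for Psmb4. Before this division Psma2 had a higher CPM than Psma1 in CTL (346 against 315). Its length was 2911 bases against 1201. The ATPases ran from 260 for Psmc4 to 383 for Psmc1, and the lid from 146 for Psmd12 to 298 for Psmd3. Subunits that enter the particle in equal number did not have equal measured levels, and these lengths are those of the annotation, not of the reads. The chaperones were lower than the core and cap genes shown, at 44.2 CPM per kb for Psmd9 and 31.4 for Psmg1. In SAE the same genes stood at 200 for Psma1, 341 for Psmb4, 293 for Psmc1 and 217 for Psmd3. Psmc5, at 381 ± 20.4 CPM per kb in CTL beside 383 ± 15.1 for Psmc1, was above it in SAE, at 372 ± 5.6 beside 293 ± 5.92.

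**Figure D4:**
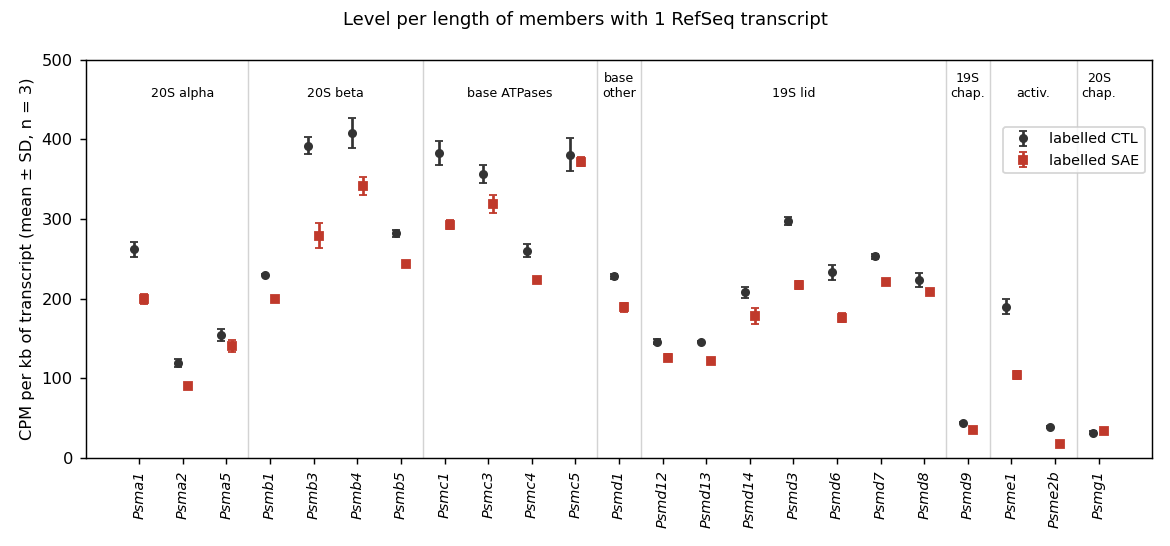
CPM per kb of transcript for the tested members with 1 RefSeq transcript, as mean ± SD over 3 libraries, labelled CTL (black circles) and labelled SAE (red squares), ordered by place in the proteasome. The red squares lie below the black circles for all genes shown but Psmg1, and nearly touch them for Psmc5.

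The immunoproteasome subunits, which replace active beta subunits under interferon, had larger folds. Psmb8 had 149 ± 12.1 CPM in CTL and 11.3 ± 1.19 in SAE (-3.73 ± 0.11, adjusted p = 7.98e-19), and Psmb10 175 ± 12.9 and 76.5 ± 8.12 (-1.21 ± 0.08, adjusted p = 6.97e-12), while Psmb9 had 0 to 8 counts and was not tested.

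Other genes of the pathway were mixed, where 23.9% of all genes tested were called lower and 23.7% higher. Of 13 proteasome partners in the table, 7 were tested, 3 were called lower and 1 higher (median -0.14). Zfand5, a proteasome activator, had the largest fold of those called, from 95.3 ± 12.3 to 61.3 ± 6.88 CPM (-0.65 ± 0.1, adjusted p = 1.39e-05). Adrm1, the ubiquitin receptor of the cap, fell from 313 ± 10.7 to 214 ± 5.64 CPM (-0.56 ± 0.05, adjusted p = 3e-09). Pomp, the assembly factor of the core, was called at -0.16 ± 0.06 (adjusted p = 0.0337), a call lost in 9 of 16 alternatives, with an adjusted p of 0.0763 and 0.113 without CTL replicate 1 and 2, and 0.158 and 0.259 without SAE replicate 1 and 2. The ubiquitin ligase Ube3c was higher (0.3 ± 0.05, adjusted p = 7.25e-06). Of 6 genes for ubiquitin and its activating enzymes 5 were tested, Rps27a having 0 to 1 counts. Of the 5, 1 was called lower, Uba1 (-0.33 ± 0.09), and 1 higher, Uba6 (0.84 ± 0.09, adjusted p = 3.14e-08). Of 11 shuttle factors, genes of the p97 unfoldase and regulators of proteasome genes, 6 were tested. Ubqln1, Ubqln4, Nploc4, Ufd1 and Ngly1 fell under the expression filter. Of the 6, 3 were called lower and 0 higher: Rad23b (-0.22 ± 0.04), Ddi2 (-0.28 ± 0.09) and Vcp (-0.12 ± 0.04). Ddi2 lost its call without CTL replicate 1 (adjusted p = 0.104) or SAE replicate 1 (0.0906), and Vcp without SAE replicate 1 (0.0587) or 2 (0.0573). Nfe2l1, the factor known to drive proteasome genes, was counted 26 to 40 times in each library of CTL and SAE (0.17 ± 0.24, adjusted p = 0.597).

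In the libraries labelled CCLF the summed level of the 23 core and cap members was 7207, 7260 and 7410 CPM. It lay between the other groups, at 92.1% of the CTL mean. CCLF was compared with each of the other groups in a fit of all 9 libraries, subject to the limit on the CCLF columns given above, which tested 30 members because Psma4 passed its filter. Against SAE, 7 members were called higher and 0 lower, where 7.09% of 8479 genes were called higher and 4.19% lower. Unadjusted, 15 were higher and 0 lower, and DESeq2 called 8 higher and limma-voom 6, with 0 lower in both. The 7 were Psma2, Psmb3, Psmc1, Psmd3, Psmd13, Psme1 and Psme2b, with Psmc1 at 597, 559 and 592 CPM (0.32 ± 0.04, adjusted p = 0.000467) and Psma2 at 339, 299 and 332 (0.31 ± 0.05, adjusted p = 0.00282). The number was 4 without CTL replicate 1 or SAE replicate 3, 3 without SAE replicate 1 or 2, and 4 in a fit of only the 6 libraries compared. Psma2, Psmc1 and Psmd13 were called in all 20 alternatives, while Psmb3 lost its call in 2, Psme1 in 7, Psmd3 in 8 and Psme2b in 13. Against CTL, 4 were called lower and 0 higher (4.16% of all genes were called lower and 5.89% higher): Psmb3, Psmc4, Psmd6 and Psme1. Unadjusted, 11 were lower and 0 higher, and with DESeq2 and limma-voom 0 were higher. Psmd6 had 279, 241 and 242 CPM (-0.35 ± 0.06, adjusted p = 0.00298), and Psme1 152, 159 and 123 (-0.55 ± 0.08, adjusted p = 0.00164). This number was 2 without CTL replicate 1, CTL replicate 2 or SAE replicate 2, 7 without CCLF replicate 3, and 2 in a fit of only the 6 libraries compared. Psmd6 and Psme1 were called in all 20 alternatives, while Psmc4 lost its call in 9 and Psmb3 in 12. Both comparisons share the CCLF libraries, and each shares its other group with the comparison of SAE and CTL.

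The CCLF libraries did not keep one order over the members. On the line from the SAE mean at 0 to the CTL mean at 1, Psma1 stood at 0.8, 0.95 and 0.06 in the 3 CCLF libraries, Psmd3 at 0.34, 0.21 and 0.94, and Psmb5 at 0.44, 0.91 and 0.04. The library nearest to SAE for one was nearest to CTL for another. Of the 22 members called lower, 22, 20 and 21 lay between 0 and 1 in the 3 libraries, near the share of all 1639 called genes (94.3%, 93.0% and 94.1%). The first CCLF library was nearest to CTL in 6 members, the second in 10 and the third in 6, and over the 1639 genes these numbers were 564, 529 and 546, so the order also changed over called genes in general. Correlations between libraries over these 22 genes were 0.06, -0.09 and -0.06. These are descriptions over genes that share the group means.

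**Figure D5:**
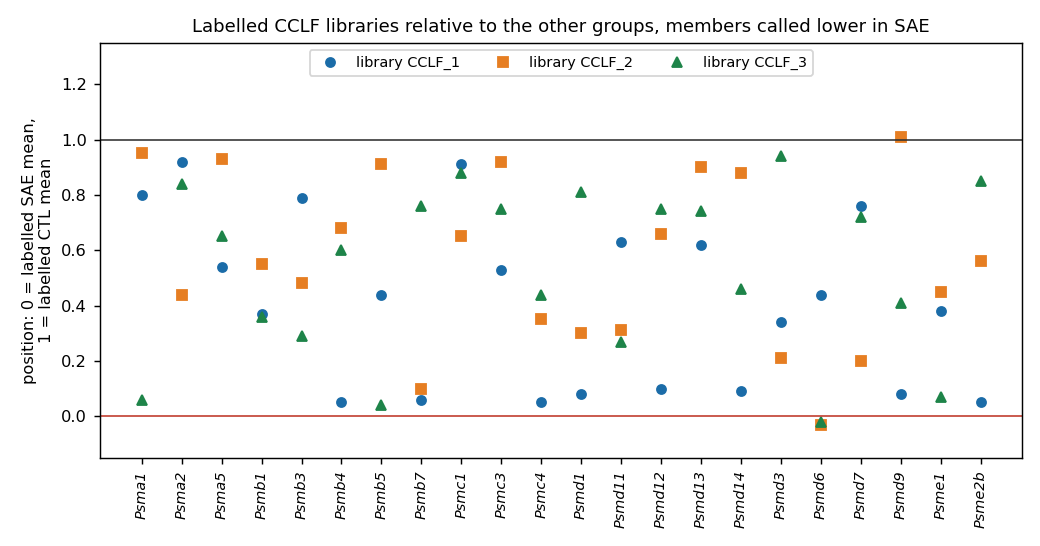
Position of each CCLF library between the SAE mean (0) and the CTL mean (1), on the CPM scale, for the 22 members called lower in SAE. Each symbol is 1 library. The order of the 3 libraries changes from gene to gene, as in Psma1 (0.8, 0.95 and 0.06) and Psmd3 (0.34, 0.21 and 0.94).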

How the data were processed

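RNA of hippocampus was depleted of ribosomal RNA and sequenced, per the labels' protocols. The authors deposited 1 table of whole-number counts per RefSeq transcript, made with fastp and Salmon per the submitters' processing notes. Tool versions, settings, index, genome build and strand setting were not given in the sources used here. All 120312 transcripts were matched to symbols through RefSeq (GRCm38.p6, used for names and promoters) and counts were summed to 38911 genes. Members under the expression filter were not tested, and nearly all of these are genes with several transcripts in the table.

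Genes were filtered with filterByExpr, scaled with TMM (factors 0.983 to 1.02) and fitted with edgeR 4.0.16 (quasi-likelihood, robust, in R 4.3.3). The SAE and CTL comparison used its 6 libraries, and the comparisons with CCLF all 9. Calls are adjusted p-values under 0.05. Standard errors are the size of the log2 fold over the root of F. Libraries were labelled biological replicates. Averaged over genes, no replicate pair agreed within sampling noise (chi-square per gene 1.85 to 5.94). This average does not describe single members, such as Psmb1 with 404 ± 0.676 CPM in CTL. The p-values for SAE against CTL take the libraries of a group as separate mice, which was not tested. Members, gene lists and tests were chosen with earlier results of these data known.

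Members given in every library are, per subcomplex, up to 3 called genes of largest fold and the gene of highest CPM. Psmb1, Psmb5, Psmc5, Psmd7, Psmd12, Psmd14 and other members were added after values were seen. Alternatives were DESeq2 1.42.0 size factors and test, limma-voom (limma 3.58.1), other filters, other sets of libraries, a replicate block, each library left out, genes with 1 transcript and each member's top transcript. Scaling by library totals and by upper quartile was added after seeing the data.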

Additional observations from a re-analysis of the deposited data

How the results depend on the processing

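Of the 22 members called lower in SAE, 20 were called in every alternative that tested them, the exceptions being Psma5 and Psmd11. The number called against CTL ran from 20 to 23 with each library left out (all genes 3543 to 3932). Without a library the medians ran from -0.40 to -0.21 for the alpha ring, -0.28 to -0.23 for the beta ring, -0.21 to -0.18 for the ATPases, -0.26 to -0.21 for the lid and -0.54 to -0.49 for the activators. The alpha value of -0.21 came without CTL replicate 2. That fit tested 6 alpha members rather than 5, because Psma4 (0.02) passed its filter. What else moved the median was not tested. The numbers against CCLF ran from 3 to 9 (SAE) and 2 to 7 (CTL). With no filter the medians were -0.21 (beta), -0.17 (ATPases) and -0.29 (activators), with 13 members called between CCLF and SAE. With a filter of 1 CPM they were -0.21, -0.17 and -0.29, more members being tested in both. All 9 libraries in the fit gave -0.29 for the alpha ring, again with 6 alpha members tested. Only the 6 libraries compared gave 4 and 2 members for CCLF against SAE and CTL. Genes with 1 transcript gave 2565 called genes of the 4776 tested, and medians of -0.21 (beta), -0.17 (ATPases) and -0.99 (activators, 2 tested). The top transcript gave -1.01 for the activators, from Psme4. Library totals gave -0.23 (beta), -0.16 (ATPases) and 2 members for CCLF against CTL, and the upper quartile -0.23, -0.16 and 2. The cause of these scaling shifts was not tested. Psme3 ran from -0.032 to 0.18, being negative without CTL replicate 2 (-0.032) and SAE replicate 3 (-0.0073). Same-numbered CTL and SAE libraries had correlations of deviations of 0.1, 0.04 and 0.14 over 3700 genes, so the numbers were not taken as pairing, although 6 of 6 libraries correlated best with their own number. With the replicate block 21 members and 3892 genes were called for SAE against CTL, and 6 and 4 members for CCLF against SAE and CTL. The precision of thinly counted members is limited by their counts.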
